A study of Mus musculus with 8 samples.

Results

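The 10 genes described here are commonly used to mark astrocytes in brain tissue: *Gfap*, *Aqp4*, *Aldh1l1*, *Slc1a2*, *Slc1a3*, *Gja1*, *Gjb6*, *S100b*, *Sox9* and *Aldoc*. They were taken by name from the 24015 entries of a gene count table from mouse brain at postnatal day 7 (P7), and 10 of 10 were present. Each also passed the filter on low counts that left 15588 genes for testing. The study removed a non-coding interval, named 1b, from the sodium channel gene *Scn1a*, and the libraries compared here came from its wild-type (WT), heterozygous (1b+/-) and homozygous (1b-/-) mice. The deletion was made in the germline with Cas9 on a C57BL/6N background, so all cells of a mutant animal carried it, astrocytes included.

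There were 8 libraries of messenger RNA, each from 1 animal. WT libraries 1 and 2 were both male, with 0 deleted alleles. Among the heterozygotes, which carried 1 deleted allele, libraries 1 and 2 were male and libraries 3 and 4 were female. The homozygotes carried 2 deleted alleles, and their libraries 1 and 2 were both female, so sex and genotype cannot be told apart between WT and 1b-/-. GEO's labels give the tissue as hippocampus and the methods of the study give forebrain, so the region is uncertain.

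Astrocytes are the glial cells that clear transmitter, buffer potassium and water, and feed neurons. They form in large numbers from radial glia in the first postnatal weeks, and many of the genes below are shared with those radial glia, so at this age none of the 10 is a label of mature astrocytes alone. In whole tissue, fewer cells of a type and less RNA per cell cannot be told apart.

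Depth and tissue were examined first. Total counts ranged from 2947770 to 20878772 per library, and a count of 0 would have allowed a level of up to 0.145 to 1.0 CPM (counts corrected for depth with TMM factors), which covers counting error only. All 10 genes had counts in 8 of 8 libraries, as did the 11 neuronal markers examined. *Scn1a* checked the genotype labels, with 40.5 and 45.1 CPM in WT, 15.7 to 26.7 CPM in 1b+/- and 2.0 and 3.18 CPM in 1b-/-. Tissue markers differed between libraries. Summed over 13 midbrain and hindbrain genes, 1b+/- library 1 held 78.3 CPM against 3.34 to 21.6 CPM in the other libraries. Summed over 11 vascular and meningeal genes it held 2134 CPM, and WT library 1 held 678 CPM, the highest and lowest values of a range whose other libraries lay between 806 and 1280 CPM.

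The order of the 10 genes was read per length, as CPM divided by kilobases of exon (RPKM). The length was the union of all annotated exons, with 3105 bases for *Gja1*, 8537 for *Slc1a3* and 13153 for *Slc1a2*. The order depends on that choice of length, and in CPM the mean was 390 for *Slc1a3* and 277 for *Gja1*. Per length, *Gja1* was the most abundant, at 89.2 ± 27.9 RPKM (SD, n = 8 libraries), and *Slc1a3* followed at 45.7 ± 4.90 RPKM. *Aldoc* (23.4 ± 4.25 RPKM) and *Slc1a2* (16.2 ± 2.07 RPKM) came next. Between *Slc1a3* and *Aldoc* the ranges over libraries did not overlap, nor did they between *Slc1a2* and the following gene, *Sox9*. These gaps split the 10 genes into 3 tiers.

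The lower tier held *Sox9* (9.40 ± 2.0 RPKM), *Aldh1l1* (8.39 ± 1.86), *Gjb6* (5.77 ± 2.45), *Aqp4* (3.70 ± 1.11), *S100b* (1.55 ± 1.14) and *Gfap* (1.48 ± 0.453), all in RPKM (SD, n = 8 libraries). Neighbours in this tier overlapped in every case. *Sox9* was above *Aldh1l1* in 5 of 8 libraries, and *S100b* was above *Gfap* in only 2 of 8, so the order of those pairs is not beyond the spread. *Gfap*, the gene most often used to stain astrocytes, was thus last in mean level per length, and the libraries held between 14 and 167 *Gfap* counts.

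**Figure D1:**
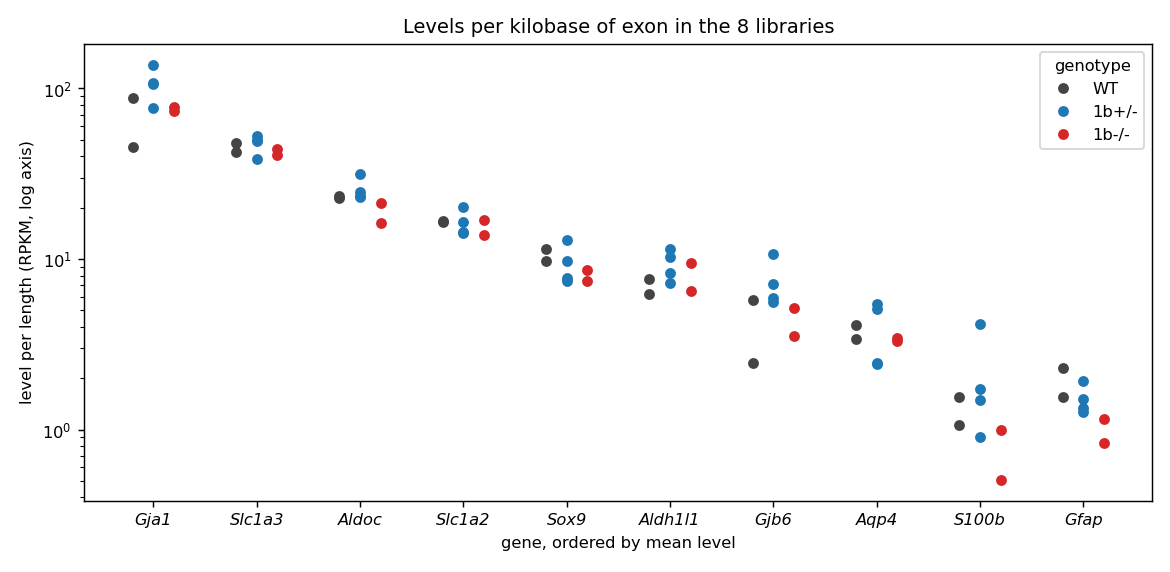
Level per length (RPKM, log axis) of the 10 astrocyte genes, ordered by their mean, with 1 point for each library coloured by genotype. *Gja1* lies highest (45.2 to 138 RPKM), gaps separate *Slc1a3* from *Aldoc* and *Slc1a2* from *Sox9*, and *S100b* and *Gfap* lie lowest.

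The genes also differed in how steady they were. From the lowest to the highest library, CPM spanned 1.35-fold for *Slc1a3*, 1.46-fold for *Slc1a2*, 1.75-fold for *Sox9*, 1.83-fold for *Aldh1l1* and 1.95-fold for *Aldoc*. It spanned 2.25-fold for *Aqp4*, 2.75-fold for *Gfap*, 3.05-fold for *Gja1*, 4.36-fold for *Gjb6* and 8.26-fold for *S100b*. Within genotypes, the SD of log2 CPM was 0.408 for *Gja1*, 0.514 for *Gjb6*, 0.492 for *Aqp4* and 0.655 for *S100b*. Genes within 2-fold of the same mean level had median SDs of 0.173, 0.264, 0.241 and 0.407, respectively. *Slc1a3* (0.166 against 0.175) and *Gfap* (0.288 against 0.317) varied about as much as genes of like level, and *Slc1a2* somewhat more (0.204 against 0.175). The glutamate transporter genes were therefore among the steadiest of the 10, and the gap junction genes, *Aqp4* and *S100b* among the most variable.

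*Slc1a3* and *Slc1a2* encode GLAST and GLT-1, the membrane transporters that take up synaptic glutamate. *Slc1a3* lies on chromosome 15 (mm9, 8584124 to 8660764) and *Slc1a2* on chromosome 2 (102498816 to 102630941). *Slc1a3* CPM was 362 and 411 in WT, 332, 425, 422 and 448 in 1b+/-, and 379 and 346 in 1b-/-. *Slc1a2* CPM was 216 and 220 in WT, 186, 267, 216 and 191 in 1b+/-, and 183 and 222 in 1b-/-. The genotypes overlapped for both genes in every comparison.

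GLAST is known as the earlier of the transporters in forebrain development and GLT-1 as the later. Per length, *Slc1a3* exceeded *Slc1a2* in 8 of 8 libraries, by 2.58- and 2.88-fold in WT, by 2.45- to 3.62-fold in 1b+/- and by 3.19- and 2.41-fold in 1b-/-. For *Slc1a2* the fold change was 0.987 in 1b+/- against WT (95% interval 0.770 to 1.27) and 0.927 in 1b-/- against WT (0.695 to 1.24). For *Slc1a3* it was 1.05 (0.840 to 1.32) and 0.938 (0.724 to 1.22). The lowest and highest limits of these intervals were 0.695 and 1.32.

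*Gja1* encodes connexin 43 and *Gjb6* connexin 30, the gap junction proteins that couple astrocytes into networks. *Gja1* lies on chromosome 10 (mm9, 56097106 to 56110225) and *Gjb6* on chromosome 14 (57742140 to 57752448). *Gja1* CPM was 140 and 274 in WT, 428, 335, 328 and 237 in 1b+/-, and 242 and 230 in 1b-/-. *Gjb6* CPM was 5.54 and 13.03 in WT, 24.2, 16.2, 13.3 and 12.7 in 1b+/-, and 11.8 and 8.01 in 1b-/-. For both genes WT library 1 was the lowest of the 8 and 1b+/- library 1 the highest.

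Over all libraries, the ratio of *Gja1* to *Gjb6* varied less than that of *Gja1* to *Slc1a3*. Per length, *Gja1* exceeded *Gjb6* by 12.9- to 21.0-fold, whereas the ratio of *Gja1* to *Slc1a3* ran from 1.07 in WT library 1 to 3.55 in 1b+/- library 1, with 1.46 to 2.17 in the other 6 libraries. In those 6 libraries *Gja1* exceeded *Gjb6* by 13.7- to 21.0-fold, so the contrast rests on WT library 1 and 1b+/- library 1. No ratio of *Gjb6* to a transporter gene was taken. Meningeal cells are also known to express both connexin genes. The summed vascular and meningeal list (11 of 11 genes with counts in every library) was 678 and 1105 CPM in WT, 2134, 1280, 961 and 1104 CPM in 1b+/-, and 1216 and 806 CPM in 1b-/-. It was therefore lowest and highest in the same libraries as the connexin genes. So was the summed oligodendrocyte precursor list, at 136 CPM in WT library 1 and 212 CPM in 1b+/- library 1. The part of either list in the connexin levels was not tested.

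**Figure D2:**
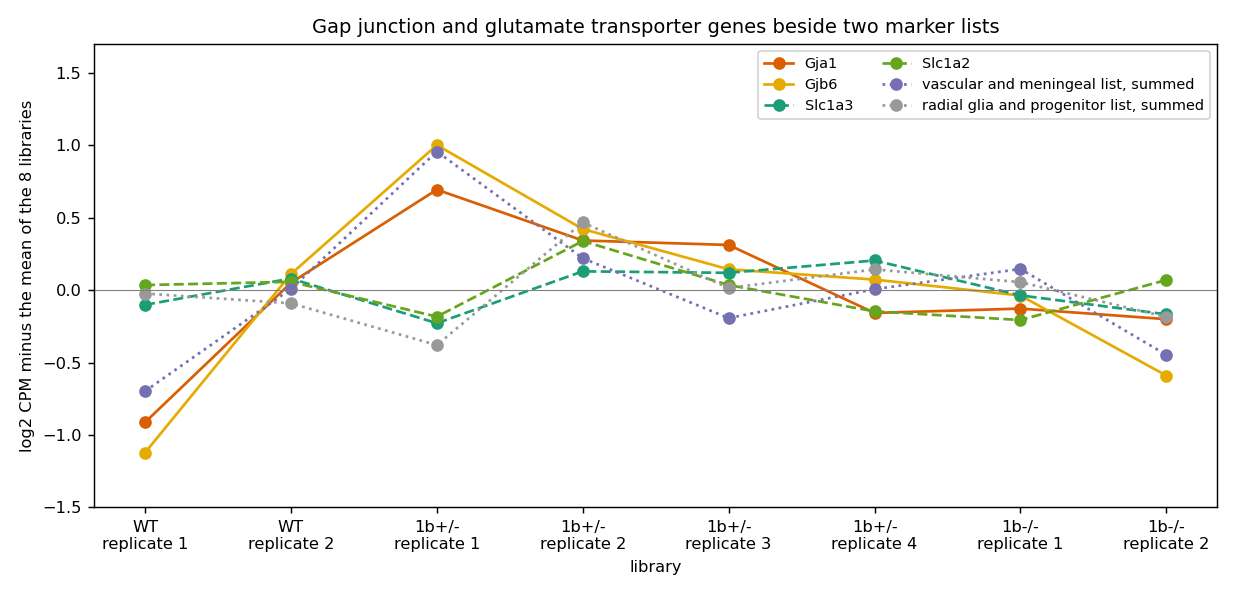
Level in each of the 8 libraries relative to the mean over libraries (log2 CPM, centred) for *Gja1*, *Gjb6*, *Slc1a3* and *Slc1a2*, and for the summed vascular and meningeal list and the summed radial glia and progenitor list. *Gja1*, *Gjb6* and the vascular and meningeal list are lowest in WT library 1 and highest in 1b+/- library 1, whereas the transporters stay close to 0.

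Promoter sequence was set beside these genes because the connexin genes shared their highest and lowest libraries and *Gfap* is a classical target of STAT factors. Windows of RefSeq promoters (GRCm38.p6, from 250 bases before to 50 after each start site) were matched for 8 of the 10 genes, in 9 windows, and *Aqp4* and *Sox9* were not matched. The letters TGANTCA, the core of an AP-1 site, and TTCCNGGAA, the core of a STAT site, were sought on both strands. The stretches below show the match in *Gja1* and *Gfap* in capitals, and the last bases before the start site of *Gjb6*, where neither was found.
Gja1, chr10:56377270-56377299, plus strand: ctccttccagtTGAGTCAgtggcttgaaac
Gfap, chr11:102897183-102897212, minus strand: atgggggtgcTTCCAGGAAgtcaggggcag
Gjb6, chr14:57133612-57133641, minus strand: aagggacaagccttctgtccccaacccaag

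The *Gja1* match began 19 bases before its start site, and *Gja1* was the only one of the matched genes with TGANTCA, which 7.81% of all 32851 windows hold. The *Gfap* match began 2 bases before its start site, and *Aldoc* also held TTCCNGGAA, which 1.15% of all windows hold. These are matches of letters, and no binding was measured. Whether the *Gfap* match is a STAT site already known for that gene was not examined.

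*Aqp4*, *Gfap* and *S100b* encode the water channel of astrocyte endfeet, the glial intermediate filament protein and a calcium-binding protein. *Aqp4* CPM was 17.9 and 21.8 in WT, 28.9, 12.8, 26.9 and 13.02 in 1b+/-, and 18.2 and 17.5 in 1b-/-. Its spread was almost all within 1b+/-, whose libraries 1 and 3 were the highest of the 8 and libraries 2 and 4 the lowest, so that WT and 1b-/- lay inside the 1b+/- range. *Gfap* CPM was 6.53 and 9.65 in WT, 5.68, 5.35, 8.09 and 6.34 in 1b+/-, and 4.90 and 3.51 in 1b-/-. Both 1b-/- libraries were below all other libraries for *Gfap*, while WT and 1b+/- overlapped. These 1b-/- values rested on 40 and 14 counts (95% Poisson intervals 3.50 to 6.67 and 1.92 to 5.88 CPM). Both intervals hold the values of 1b+/- libraries 1 and 2. *S100b* CPM was 1.57 and 2.30 in WT, 6.20, 2.22, 2.57 and 1.34 in 1b+/-, and 1.47 and 0.751 in 1b-/-. The highest *S100b* value was 1b+/- library 1, with 94 counts, and the lowest, 1b-/- library 2, rested on 3 counts (95% Poisson interval 0.155 to 2.19 CPM).

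*Aldoc* and *Aldh1l1* encode the brain isoform of the glycolytic enzyme aldolase and a dehydrogenase of folate metabolism, and *Sox9* encodes a transcription factor of glial fate. *Aldoc* CPM was 74.5 and 76.8 in WT, 75.5, 76.4, 80.5 and 103 in 1b+/-, and 53.1 and 69.6 in 1b-/-. As for *Gfap*, both 1b-/- libraries were the lowest of the 8. *Aldh1l1* CPM was 28.0 and 34.3 in WT, 46.6, 32.8, 37.6 and 51.4 in 1b+/-, and 29.4 and 42.8 in 1b-/-. *Sox9* CPM was 40.5 and 47.0 in WT, 32.1, 53.7, 40.2 and 30.7 in 1b+/-, and 35.7 and 30.8 in 1b-/-. Genotypes overlapped for *Aldh1l1*, and for *Sox9* the 1b-/- libraries were below both WT libraries but inside the 1b+/- range.

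**Figure D3:**
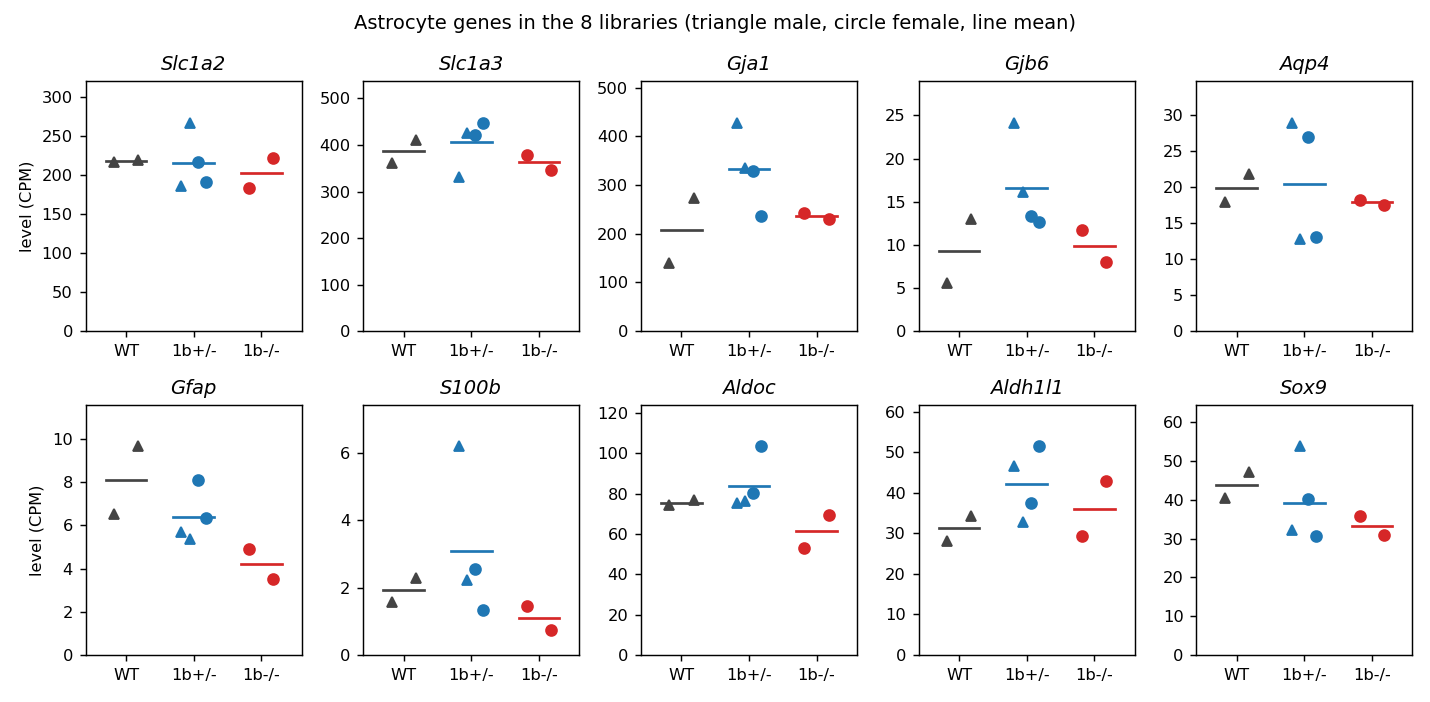
Level (CPM) of each of the 10 astrocyte genes in the 8 libraries, by genotype, with triangles for males, circles for females and a line at each group mean. The 1b-/- libraries are the lowest for *Gfap* (3.51 and 4.90 CPM) and *Aldoc* (53.1 and 69.6 CPM), and 1b+/- library 1 is the highest for *Gja1*, *Gjb6*, *Aqp4* and *S100b*.

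The first comparison asked whether the loss of 1 allele of the interval was accompanied by a different level of these genes. In 1b+/- against WT, *Gja1* was 332 ± 77.9 CPM (SD, n = 4) against 207 ± 94.4 CPM (SD, n = 2), and *Gjb6* was 16.6 ± 5.27 against 9.28 ± 5.29 CPM. In the quasi-likelihood test of edgeR the log2 fold changes were 0.69 (SE 0.26) for *Gja1* and 0.90 (SE 0.36) for *Gjb6*, with unadjusted p of 0.0231 and 0.0291 and Benjamini-Hochberg adjusted p of 0.9999 for both. None of the 10 genes passed the adjusted threshold of 0.05, which 0.0834% of all tested genes passed. The 2 genes under an unadjusted p of 0.05 stood against 4.34% of all genes, and 0 of 10 had groups that did not overlap, against 12.3% of all genes. DESeq2 and the edgeR likelihood ratio test also called 0 of 10, with 2 under an unadjusted p of 0.05 each.

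The median log2 fold change of the 10 genes was 0.12, beside 0.01 over all genes, with 7 positive and 3 negative. *Aldh1l1* was 0.43 (SE 0.22), *S100b* 0.80 (SE 0.55) and *Gfap* -0.32 (SE 0.27) on the log2 scale. The size of the connexin differences changed with the libraries used. For both genes WT library 1 was the lowest library and 1b+/- library 1 the highest. Leaving out either could therefore only shrink the differences. Without WT library 1 the log2 fold changes were 0.28 for *Gja1* and 0.37 for *Gjb6*. Without 1b+/- library 1 they were 0.54 and 0.66, without both they were 0.14 and 0.12, and without WT library 2 they were 1.25 and 1.60, each on the log2 scale.

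The second comparison, 1b-/- against WT, set 2 deleted alleles against none, and shares its WT libraries with the first. *Gfap* was 4.20 ± 0.984 CPM in 1b-/- against 8.09 ± 2.21 CPM in WT (SD, n = 2 each), and in edgeR its log2 fold change was -0.89 (SE 0.34, 95% interval -1.64 to -0.15, unadjusted p 0.0230, adjusted p 1). It was the only one of the 10 under an unadjusted p of 0.05, which 1.64% of all genes passed, and 0 of 10 passed the adjusted threshold, against 0.00642% of all genes. DESeq2 and the likelihood ratio test each had 0 of 10 past their adjusted threshold and 1 under an unadjusted p of 0.05. *Gfap*, *Aldoc*, *S100b* and *Sox9* were lower in both 1b-/- than in both WT libraries, 4 of 10, where 23.6% of all genes had groups that did not overlap. *Aldoc* was -0.31 (SE 0.20), *Sox9* -0.39 (SE 0.26) and *S100b* -0.66 (SE 0.73) on the log2 scale.

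The median of the 10 was -0.13, beside -0.01 over all genes. The *Gfap* difference was -0.60 without WT library 2 and -1.19 without 1b-/- library 1. It was -1.32 with sex as a covariate, a term that only the 1b+/- libraries could inform. For *Gja1* (0.19, SE 0.30) and *Gjb6* (0.16, SE 0.42) the sign depended on WT library 1, without which they were -0.21 and -0.37, and for *Gjb6* also on 1b-/- library 1, without which it was -0.17.

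The third comparison set 1b-/- against 1b+/-, and shares libraries with both others. In this fit all 10 log2 fold changes were negative, from -0.09 for *Slc1a2* to -1.47 for *S100b*, with a median of -0.35 beside -0.004 over all genes. *Aldoc* (61.4 ± 11.6 CPM, n = 2, against 84.0 ± 13.2 CPM, n = 4, SD) had a log2 fold change of -0.45 (SE 0.17, unadjusted p 0.0244) and *S100b* of -1.47 (SE 0.63, unadjusted p 0.0380) in the edgeR fit, both with an adjusted p of 1. *Gfap* was -0.57 (SE 0.31), *Gja1* -0.50 (SE 0.26) and *Gjb6* -0.74 (SE 0.37). Again 0 of 10 passed the adjusted threshold, against 0.00642% of all genes, by edgeR and by DESeq2. The 2 under an unadjusted p of 0.05 stood against 1.23% of all genes, and DESeq2 gave 3. *Gfap*, *Aldoc* and *Gjb6* were lower in both 1b-/- than in all 1b+/- libraries, 3 of 10, where 7.39% of all genes did not overlap.

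The negative sign held for 10 of 10 in females alone, where the median was -0.28, but for 9 without 1b+/- library 2 and for 8 without 1b-/- library 1. These refits reuse the same libraries, so they are not independent of each other. Of all 15588 tested genes, 7943 were negative in the fit of all libraries. Summed over the 10 genes, CPM was 893 and 1109 in WT, 1094 to 1227 in 1b+/- and 958 and 971 in 1b-/-. The *S100b* difference was -0.88 without 1b+/- library 1 and -2.12 without 1b-/- library 1, and the *Aldoc* difference was -0.26 without 1b-/- library 1.

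**Figure D4:**
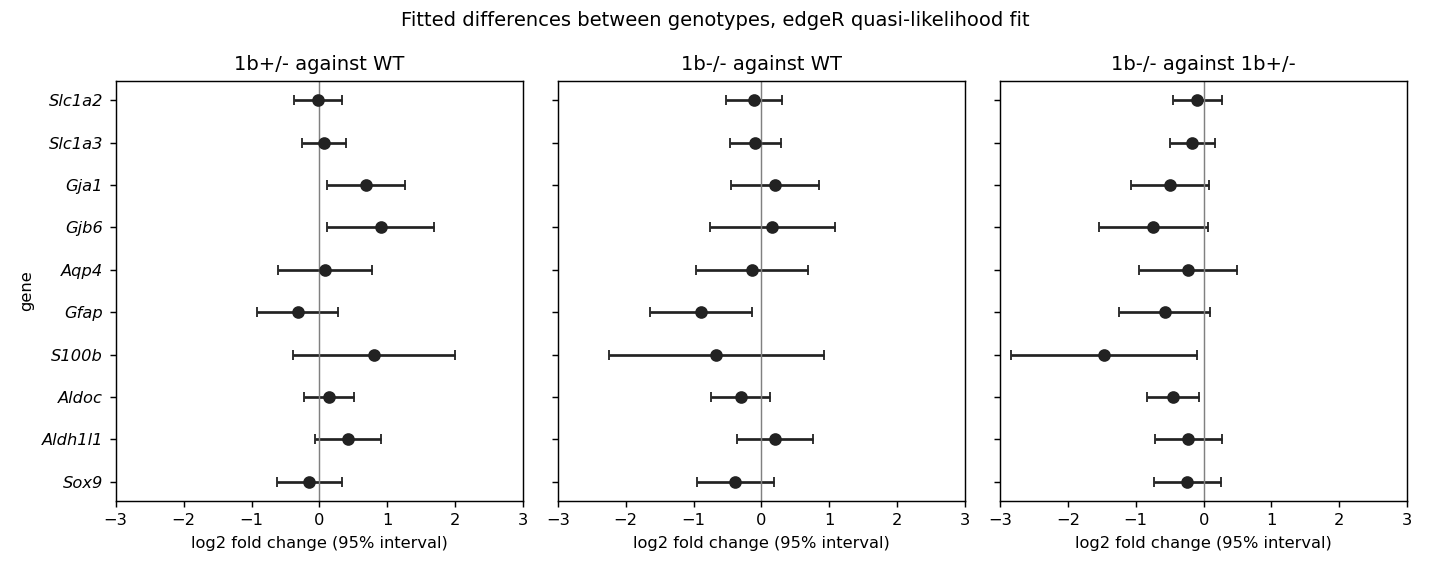
Log2 fold change of each of the 10 genes in the 3 genotype comparisons (points) with 95% intervals (bars) from the edgeR quasi-likelihood fit. Intervals lie to 1 side of 0 for *Gja1* and *Gjb6* in 1b+/- against WT, for *Gfap* in 1b-/- against WT, and for *Aldoc* and *S100b* in 1b-/- against 1b+/-, before adjustment over genes.

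Sex could be compared within 1b+/- alone, with 2 females and 2 males. The midbrain and hindbrain list summed to 78.3 and 21.6 CPM in these males and to 8.29 and 3.34 CPM in these females. Sex and tissue content therefore cannot be told apart here. None of the 10 genes passed the adjusted edgeR threshold (0.0321% of all genes did) and none had an unadjusted p under 0.05 (2.66% of all genes did). *Gfap* and *Aldoc* were higher in both females than in both males, and *Gja1* and *Gjb6* lower, 4 of 10, where 26.2% of all genes did not overlap. The largest of these was *Gjb6*, at -0.63 (SE 0.37) on the log2 scale, and its higher male value came from 1b+/- library 1. DESeq2 and the likelihood ratio test gave 0 of 10 at either threshold, and edgeR without a filter on low counts gave 0 and 3.

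A wider list of 80 astrocyte genes, grouped by role, was examined in the same fit, and 77 were tested. In 1b+/- against WT, 0 of 77 passed the adjusted threshold by edgeR or DESeq2, and 9 had an unadjusted edgeR p under 0.05, with 4 higher and 5 lower, beside 4.34% of all genes (DESeq2 gave 3). The median log2 fold change was 0.05. *Slc39a12*, a zinc transporter gene, had the smallest p, at 5.04 and 4.75 CPM in WT, 2.0 to 3.10 CPM in 1b+/- and 3.92 and 5.01 CPM in 1b-/-. Its log2 fold change was -0.96 (SE 0.29, adjusted p 0.896 in edgeR), and all 4 heterozygous libraries were below the WT and 1b-/- libraries.

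Of 10 genes that handle glutamate, GABA and amino acids, 0 had an unadjusted edgeR p under 0.05 in 1b+/- against WT. That threshold was passed by 4.34% of all genes. Their log2 fold changes ran from -0.15 for *Cbs* to 0.23 for *Slc38a3*. In 1b-/- against WT they ran more widely, from -0.85 for *Slc25a18* to 0.40 for *Slc38a3*. The *Slc25a18* value rested on 8 and 5 counts in 1b-/- and 25 and 12 in WT. Within 1b+/- this gene was lower in both females than in both males (log2 fold change -1.14). *Glul*, the glutamine synthetase gene that acts on the glutamate taken up, averaged 497, 490 and 474 CPM in WT, 1b+/- and 1b-/-, with SDs of 65.2, 86.0 and 86.9 CPM. The potassium, bicarbonate and endfoot genes likewise had 0 of 10 in 1b+/- against WT. They ran from -0.29 for *Hepacam* to 0.28 for *Kcnj10*, the gene of the inward rectifier Kir4.1.

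Among secreted and synapse-organising genes, *Thbs2*, a thrombospondin gene, was 1.71 (SE 0.68, unadjusted p 0.0277) on the log2 scale in 1b+/- against WT. Its CPM was 7.19 and 8.89 in WT, 64.0, 13.9, 11.6 and 11.7 in 1b+/-, and 7.83 and 13.3 in 1b-/-, so 1b+/- library 1 was far above the other 7. *Apoe*, the lipid carrier gene, showed the same library at the top, with 216 CPM against 78.8 to 140 CPM in the others. That library was also highest for the vascular and meningeal, midbrain and hindbrain, oligodendrocyte precursor and microglial lists. The part of these lists in the *Thbs2* and *Apoe* values was not tested. *Clu*, which encodes clusterin, was 73.5 and 74.8 CPM in WT and 36.1 to 65.4 CPM in 1b+/- (log2 fold change -0.53, SE 0.22, unadjusted p 0.0314). Within 1b+/- its CPM was 53.3, 36.1, 52.2 and 65.4 in libraries 1 to 4, where the summed choroid plexus list was 227, 31.0, 185 and 967 CPM, against 955 and 1014 CPM in WT. The ependymal list, with 5 of its 6 genes in the table, summed to 8.18 to 15.7 CPM in 1b+/- and 17.9 and 24.2 CPM in WT, and the part of either list in the *Clu* difference was not tested. *Hes5*, a Notch target gene, was 2.40 and 2.76 CPM in WT and 4.34 to 5.02 CPM in 1b+/- (0.82, SE 0.36, unadjusted p 0.0411). Neither *Clu* nor *Hes5* overlapped between these groups, and neither passed the adjusted threshold. Of the 77 tested genes, 9 did not overlap on the higher side and 5 on the lower, beside 12.3% of all genes.

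Genes of the astrocyte cytoskeleton and of the response to injury gave 2 higher (*Timp1* and *Gbp2*) and 3 lower (*Serpina3n*, *Hspb1* and *C3*) of 12 tested at an unadjusted p under 0.05, which 4.34% of all genes passed in this comparison, with a median of 0.07. All 5 were low, at no more than 3.72 CPM in any library. The filament genes *Vim* (means of 339, 334 and 290 CPM in WT, 1b+/- and 1b-/-) and *Nes* (270, 314 and 287 CPM) had group SDs of at most 35.4 and 90.3 CPM, respectively, and 0 of these filament genes was under an unadjusted p of 0.05. The transcription and cell fate genes ranged from -0.43 for *Nfix* to 0.82 for *Hes5*, the surface and signalling genes with a mean of at least 1 CPM had *Cd44* highest at 0.39, and the regional genes of the telencephalon lay between -0.24 for *Lhx2* and 0.03 for *Mfge8*. *Itih3*, from the regional genes of the diencephalon to cerebellum, was 1.36 (SE 0.71) on the log2 scale, at no more than 2.11 CPM in any library.

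In 1b-/- against WT, 0 of the 77 passed the adjusted threshold and 0 had an unadjusted p under 0.05 by edgeR or DESeq2, beside 0.00642% and 1.64% of all genes by edgeR, and the median was -0.08. *F3*, the tissue factor gene, had the smallest p, with a log2 fold change of -0.50 (SE 0.23, unadjusted p 0.0549) and 8.26 and 9.06 CPM in 1b-/- against 12.1 and 12.6 CPM in WT. Role extremes included *Itih3* at 1.05 (SE 0.84), *Gbp2* at 0.99 (SE 0.51), *C3* at -0.88 (SE 0.60), *Slc25a18* at -0.85 (SE 0.64), *Gpc4* at -0.61 (SE 0.37), *Nfix* at -0.43 (SE 0.26), *Hes5* at 0.82 (SE 0.42) and *Slc38a3* at 0.40 (SE 0.22), all on the log2 scale.

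In 1b-/- against 1b+/-, 0 of the 77 passed the adjusted edgeR threshold and 3 had an unadjusted p under 0.05, beside 0.00642% and 1.23% of all genes (DESeq2 gave 0 and 2), with a median of -0.11. *Synm*, the gene of the intermediate filament protein synemin, was 52.8 and 57.6 CPM in 1b-/- and 36.4 to 42.2 CPM in 1b+/- (log2 fold change 0.48, SE 0.14, unadjusted p 0.00633), with WT at 47.3 and 47.7 CPM between them. *Slc39a12* was 0.80 (SE 0.31) and *Gpc4*, a glypican gene of synapse formation, was -0.82 (SE 0.33). The role extremes on the lower side included *Thbs2* at -1.35 (SE 0.69), *Id3* at -0.73 (SE 0.45), *Acsbg1* at -0.39 (SE 0.21) and *Clcn2* at -0.41 (SE 0.38), and on the upper side *Ncan* at 0.17 (SE 0.16).

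Markers of related and neighbouring cells were read beside these genes. The radial glia and progenitor list (7 of 7 genes with counts in every library) was 1244 and 1187 CPM in WT, 972, 1748, 1277 and 1396 CPM in 1b+/-, and 1314 and 1112 CPM in 1b-/-. Its lowest library was 1b+/- library 1, the highest for 4 of the 10 astrocyte genes, and its highest was 1b+/- library 2, the highest for *Slc1a2* and *Sox9*. Summed choroid plexus genes, 8 of 8 with counts everywhere, ran from 31.0 CPM in 1b+/- library 2 to 1014 CPM in WT library 2. Neuronal genes summed to 5637 to 6848 CPM. Oligodendrocyte precursor genes summed to 136 to 212 CPM, oligodendrocyte genes to 60.0 to 152 CPM and microglial genes to 41.3 to 59.3 CPM. The part of these cells in the astrocyte values was not tested.

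The genes outside all lists whose profile over the 8 libraries was closest to the mean centred profile of the 10 were *Btbd11*, *Wls*, *Scara3*, *Dvl3* and *Polr2a*. Likeness was the root mean square difference in log2 CPM, which was 0.0735, 0.0791, 0.0969, 0.112 and 0.112, respectively, over 9486 candidates with a mean of at least 10 CPM. The 10 genes themselves lay between 0.236 for *Slc1a3* and 0.488 for *S100b* from their own mean profile. The nearest genes were picked by this distance out of 9486 and the 10 were not, so these distances cannot be compared.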

How the data were processed

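Messenger RNA was sequenced by the authors from 8 P7 mouse brains (stranded libraries, single-end reads of 50 bases). Reads were aligned to mm9 with STAR 2.7.2 and assigned to genes with featureCounts, per the submitters' processing notes and the methods. How strand and multi-mapping reads were handled, and the annotation release, are not given in the sources used here. The deposited values are whole-number counts per gene symbol, not normalized. All 8 columns were used, mapped by the sample descriptions.

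The astrocyte genes and all lists were chosen with earlier results of these data known. The 15588 genes that reached 1 CPM in 1 library or more were fitted in edgeR 4.0.16 (R 4.3.3), by genotype alone, with TMM factors and the quasi-likelihood test. Benjamini-Hochberg adjustment at 0.05 ran over all of them. Standard errors were log2 fold change over the root of F. RPKM used the union of GENCODE exons on mm9, and promoters came from RefSeq. On that annotation an antisense transcript shares 499 exon bases with *Aldh1l1* and 189 with *Slc1a2*. Named genes were the 10, the highest and lowest of each role with a mean of at least 1 CPM, those past the threshold, and the 5 nearest profiles. *Glul*, *Vim*, *Nes*, *Gpc4* in the last comparison and the other genes under an unadjusted p of 0.05 were chosen after their values were seen. Alternatives were other filters, RLE and upper quartile scaling, the likelihood ratio test, DESeq2 1.42.0, sex as a covariate, subsets, and omission of each library. The fit was tested on simulated data whose planted changes were larger than those of the 10 genes in the fit of all libraries. Its power for smaller changes was not measured.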

Additional observations from a re-analysis of the deposited data

How the results depend on the processing

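Each of the 30 fold changes (10 genes, 3 comparisons) was refitted under up to 18 alternatives, 530 refits in all. In 503 the direction and the side of the adjusted threshold stayed, and in 27, spread over 12 fold changes, the sign turned. The cause was not tested. Called genes were 0 in every refit, and the lowest adjusted p was 0.326 (*Gja1*, 1b+/- against WT, without a filter).

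With 1 library left out at a time, the log2 fold changes that turned ranged as follows. In 1b+/- against WT, *Aqp4* ranged from -0.12 to 0.27, *Slc1a2* from -0.14 to 0.047 and *Slc1a3* from -0.015 to 0.17. In 1b-/- against WT, *Aldh1l1* ranged from -0.081 to 0.46, *Slc1a2* from -0.25 to 0.023, *Slc1a3* from -0.18 to 0.00155, *Gja1* from -0.21 to 0.75 and *Gjb6* from -0.37 to 0.86. In 1b-/- against 1b+/-, *Aldh1l1* ranged from -0.51 to 0.036 and *Slc1a2* from -0.23 to 0.042. Without WT library 1 and 1b+/- library 1 together, *Aqp4* became -0.26, *Slc1a2* 0.036 and *S100b* -0.063 in 1b+/- against WT, and *Gja1* -0.21 and *Gjb6* -0.37 in 1b-/- against WT. With sex added to the fit, *Slc1a2* became 0.054 and *Slc1a3* -0.030 in 1b+/- against WT, and *Slc1a2* 0.041 and *S100b* 0.31 in 1b-/- against WT. In males, *Slc1a2* became 0.062 and *Slc1a3* -0.023, and under upper quartile scaling *Slc1a2* became 0.014, all in 1b+/- against WT.

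Leaving out WT library 1 together with 1b+/- library 1 was chosen after seeing the data. Where 1 library was left in a group, it was assumed to vary like the others. The count of 1b+/- against WT genes under an unadjusted p of 0.05 was 0 without WT library 1 and 1 without 1b+/- library 1. That of 1b-/- against WT was 0 without 1b-/- library 2, and that of 1b-/- against 1b+/- was 0 without 1b-/- library 1. Another scaling moved the median of all genes by at most 0.0544 (log2). No paired analysis was possible because replicate numbers follow the order of deposit and pair no animals. *S100b* held 3 to 94 counts, and its fold changes had the largest standard errors of the 10 genes in all 3 genotype comparisons.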
